A study of Mus musculus and Homo sapiens with 20 samples.

Results

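Long intergenic non-coding RNA (lincRNA) genes lie away from protein-coding genes, so the Polycomb marks at their promoters can be read with no coding start in the same window. The peaks came from CUT&Tag, in which an antibody to a histone mark guides a transposase that cuts and tags the nearby DNA. The members were the autosomal genes that GENCODE M21 types as lincRNA on mm10, with a start over 5 kb from every protein-coding start and outside every coding gene. A promoter was the start base with 1000 bases on either side, and it counted as marked when a peak of the library touched it. The rule kept 4358 of 5209 autosomal lincRNA genes, out of 51229 autosomal genes of all types. The rule used position and gene type and no measured value.

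The 16 mouse libraries fell into 8 groups of 2. The marks H2AK119ub and H3K27me3 were each mapped in 2 cell types, wild type (WT) or Tet2 knockout (KO). One was the mES cell, an embryonic stem cell of the mouse. The other was the LK fraction of bone marrow, which lacks lineage markers and carries c-Kit, called here haematopoietic stem and progenitor cells (HSPCs). The mES cells were embryo-derived WT and Tet2-/- lines grown with LIF and the inhibitors CHIR99021 and PD0325901, and taken off feeder cells on gelatin. The HSPCs came from WT C57BL/6 and Tet2-/- mice of 6 to 8 weeks, of both sexes, and carried no other allele or treatment that the labels name. The labels also describe a suspension culture of LK cells with cytokines, and do not say whether these libraries were cultured. The methods speak of biological replicates, but the sex and number of mice behind each HSPC library, and whether replicates were separate cultures or animals, are not given in the sources used here, so each p-value measures only the spread between these libraries. TET2 oxidises 5-methylcytosine, and the study asked how its loss changes the Polycomb marks.

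H2AK119ub is a single ubiquitin on a lysine of histone H2A, placed by Polycomb repressive complex 1 (PRC1). H3K27me3 is the trimethylation of a lysine of histone H3, placed by PRC2. Each complex can bind the mark of the other, and both gather at CpG-rich promoters of silent developmental genes. LincRNA promoters are in general poorer in CpG than coding ones, and the transcripts tend to be restricted to few cell types.

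The files hold peak positions only, 85121 to 167378 per library, so read depth and its counting error are unknown. Between 33.5% and 41.4% of the peaks of a library were exactly 501 bp wide, and such a peak inside a promoter window covers 25% of it. Of the marked members of a library, 17.5% to 31.0% were touched by peaks of that width alone. The labelled cell types were compared with promoters of marker genes. H3K27me3 touched 1 to 3 of 8 pluripotency gene promoters in the mES libraries and 6 of 8 in the HSPC libraries, while H2AK119ub touched 7 to 8 of the same 8 in mES cells and 4 to 6 in HSPCs. Of 8 HSPC gene promoters, H3K27me3 touched 6 to 7 per mES library, against 5 to 6 per HSPC library. The touch counts thus hardly told the cell types apart for these genes. The mean H3K27me3 cover of the same promoters was 67.6% to 72.1% for mES libraries, against 34.4% to 41.6% for HSPC libraries. H2AK119ub touched 7 of the 8 in every library. Its mean cover was 60.5% to 69.3% for mES libraries, against 67.45% to 74.4% for HSPC libraries, ranges that overlap. Promoters of 5 fibroblast genes were touched by H3K27me3 in 5 of 5 cases in mES cells and 4 to 5 in HSPCs. The lists cannot show the deletion of Tet2 itself.

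The sequences below are 250 bases before to 50 bases after the start of lincRNA genes on which the results turn, 5′ to 3′ on the strand of the gene, with each CpG in capitals. They come from GRCm38, the build of the files. Gm28380 (chr1:91611156-91611455, plus strand) and 4933424M12Rik (chr4:107783470-107783769, plus) are shown as promoters whose H2AK119ub or H3K27me3, respectively, was called in mES cells alone. C920006O11Rik (chr9:78175664-78175963, plus) and Gm43348 (chr3:82812185-82812484, minus) are the reverse for the same marks. Gm1965 (chr6:89140744-89141043, plus) and 1700003M07Rik (chr4:129960124-129960423, plus) lost a mark in Tet2 KO mES cells, and Gm29067 (chr4:54646231-54646530, minus) gained one. Gm42418 (chr17:39846708-39847007, plus) was covered in every library.
Gm28380: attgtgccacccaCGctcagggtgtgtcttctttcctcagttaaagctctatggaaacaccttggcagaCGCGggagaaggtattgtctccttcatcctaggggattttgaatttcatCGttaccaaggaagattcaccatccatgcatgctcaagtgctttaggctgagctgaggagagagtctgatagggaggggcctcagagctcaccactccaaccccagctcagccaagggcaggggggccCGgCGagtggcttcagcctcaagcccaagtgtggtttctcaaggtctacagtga
4933424M12Rik: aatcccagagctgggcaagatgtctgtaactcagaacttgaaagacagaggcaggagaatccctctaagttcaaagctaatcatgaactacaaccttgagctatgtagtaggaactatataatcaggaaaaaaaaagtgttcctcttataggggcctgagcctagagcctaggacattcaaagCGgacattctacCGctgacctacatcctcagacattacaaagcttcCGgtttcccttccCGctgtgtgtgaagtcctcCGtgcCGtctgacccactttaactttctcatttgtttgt
C920006O11Rik: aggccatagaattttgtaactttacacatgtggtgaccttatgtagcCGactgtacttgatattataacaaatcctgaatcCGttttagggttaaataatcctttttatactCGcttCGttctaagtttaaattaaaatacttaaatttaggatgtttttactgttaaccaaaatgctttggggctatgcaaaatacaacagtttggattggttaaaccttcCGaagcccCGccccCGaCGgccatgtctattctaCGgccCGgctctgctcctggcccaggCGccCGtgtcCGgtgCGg
Gm43348: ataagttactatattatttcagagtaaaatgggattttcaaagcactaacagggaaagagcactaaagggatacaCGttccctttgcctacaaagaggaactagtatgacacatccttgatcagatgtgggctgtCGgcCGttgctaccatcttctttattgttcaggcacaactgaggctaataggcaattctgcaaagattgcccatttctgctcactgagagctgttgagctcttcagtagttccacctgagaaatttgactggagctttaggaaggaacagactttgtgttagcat
Gm1965: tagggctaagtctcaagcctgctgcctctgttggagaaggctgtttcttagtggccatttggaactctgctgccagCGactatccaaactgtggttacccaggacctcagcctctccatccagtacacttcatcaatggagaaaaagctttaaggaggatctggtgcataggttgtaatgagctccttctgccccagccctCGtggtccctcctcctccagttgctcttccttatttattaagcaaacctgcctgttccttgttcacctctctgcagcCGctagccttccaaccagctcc
1700003M07Rik: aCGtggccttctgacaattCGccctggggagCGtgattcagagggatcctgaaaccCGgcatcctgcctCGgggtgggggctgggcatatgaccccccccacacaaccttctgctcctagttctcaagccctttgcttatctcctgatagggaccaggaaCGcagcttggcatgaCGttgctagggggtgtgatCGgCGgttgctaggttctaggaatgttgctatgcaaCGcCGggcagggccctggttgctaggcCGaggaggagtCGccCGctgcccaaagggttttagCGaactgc
Gm29067: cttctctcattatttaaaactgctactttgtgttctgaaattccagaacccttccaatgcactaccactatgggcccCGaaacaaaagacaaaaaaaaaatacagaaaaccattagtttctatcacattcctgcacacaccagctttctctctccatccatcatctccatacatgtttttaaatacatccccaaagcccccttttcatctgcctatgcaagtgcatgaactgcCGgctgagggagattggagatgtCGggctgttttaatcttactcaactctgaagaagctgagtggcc
Gm42418: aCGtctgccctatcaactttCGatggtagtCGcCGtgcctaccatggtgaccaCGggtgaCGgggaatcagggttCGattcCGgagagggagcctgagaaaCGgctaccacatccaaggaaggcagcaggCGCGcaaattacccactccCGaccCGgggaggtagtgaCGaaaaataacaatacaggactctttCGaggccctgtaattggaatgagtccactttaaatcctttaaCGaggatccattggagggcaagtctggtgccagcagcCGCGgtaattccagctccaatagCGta
The stretches hold 6 (Gm28380), 6 (4933424M12Rik), 14 (C920006O11Rik), 3 (Gm43348), 3 (Gm1965), 15 (1700003M07Rik), 3 (Gm29067) and 19 (Gm42418) CpGs. Most CpGs of C920006O11Rik crowd into the last part of the stretch, around the start itself. Those of Gm1965 are scattered, and those of Gm43348 lie in the first part, away from the start. The letters of Gm42418 are those of 18S ribosomal RNA, which is present in many copies in the genome, so reads placed there cannot be assigned to this copy.

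Intergenic lincRNA promoters carried both marks less often than protein-coding promoters in all 16 libraries. H2AK119ub touched 44.8% and 44.2% of the 4358 members in the WT mES libraries. The KO mES libraries gave 43.5% and 42.0%. The WT HSPC libraries stood at 26.96% and 20.9%, and the KO HSPC libraries at 26.4% and 27.7%. The coding shares were 69.2% to 70.3% for mES cells, against 65.6% to 72.7% for HSPCs, so the mES and HSPC ranges of the members stood apart while those of the 20807 coding promoters overlapped. Over the 8 H2AK119ub libraries the members lay 35.4 percentage points below coding promoters (difference −35.4; lower in 8 of 8 libraries; two-sided exact sign-flip permutation test over libraries, p = 0.0078, adjusted p = 0.0495 over 19 tests, the smallest p the 256 arrangements allow).

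H3K27me3 touched 31.6% and 36.3% of the members in the WT mES libraries. The KO mES libraries were at 32.8% and 25.5%, the widest spread within a group for this mark. The HSPC libraries lay close together, with 23.5% and 23.7% for WT, then 24.4% and 23.0% for KO. The members lay 25.5 points below coding promoters (difference −25.5; lower in 8 of 8 libraries; exact sign-flip permutation test, p = 0.0078, adjusted p = 0.0495). As a reference for the genome at large, peaks touched 20.02% to 21.7% of 2-kb genome tiles for H2AK119ub in mES libraries, against 13.3% to 16.2% in HSPC libraries. For H3K27me3 the tiles were at 13.03% to 17.4% in mES libraries, against 12.2% to 12.8% in HSPC libraries. The members were above the tiles of their own library in each of the 16 lists, and the 851 lincRNA promoters nearer to or inside coding genes were at 68.3% to 70.4% for H2AK119ub in mES cells, close to the coding range.

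**Figure D1:**
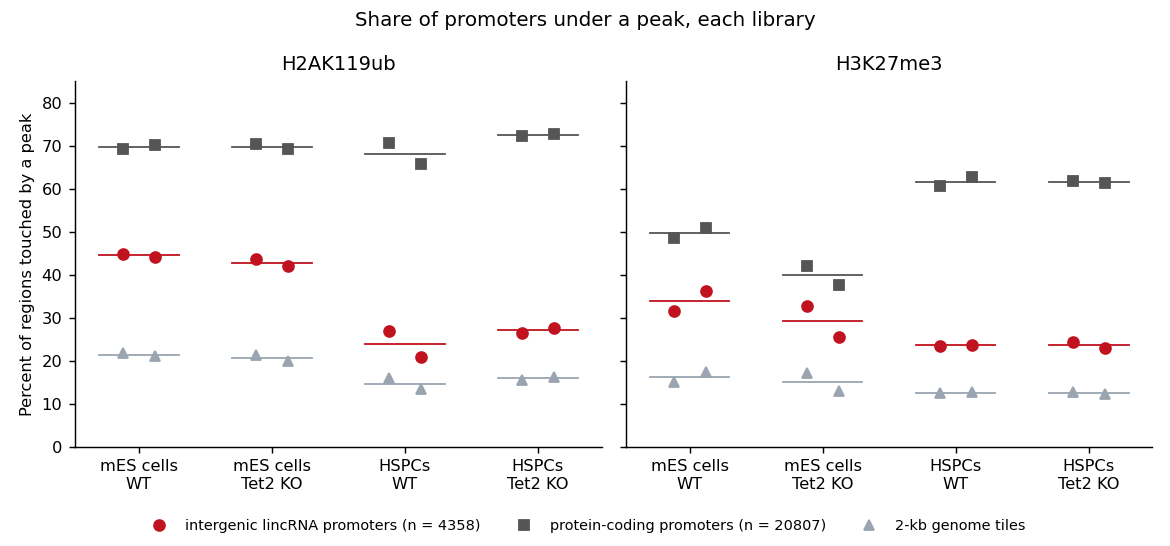
Percent of regions touched by a peak (vertical axis) in each of the 16 libraries, by cell type and genotype, for H2AK119ub (left) and H3K27me3 (right). Each point is 1 library and each line the mean of 2; the circles of lincRNA promoters lie between the squares of coding promoters and the triangles of 2-kb tiles in every library, and those of H2AK119ub drop from 42.0% or more in mES cells to 27.7% or less in HSPCs.

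The cell types were compared next, with coding promoters as the reference. H2AK119ub touched 18.2 percentage points fewer members in HSPCs than in mES cells (difference −18.2; exact permutation test within genotype, p = 0.0556, the smallest that 36 arrangements allow, adjusted p = 0.151). The same comparison for H3K27me3 gave −7.91 points (exact permutation test, p = 0.0556, adjusted p = 0.151). Neither could pass the threshold in this design, and the 4 HSPC values lay below the 4 mES values for each mark. The H3K27me3 difference was smaller under stricter overlap, at −2.69 points with 50% of the window covered (exact permutation test, p = 0.222), −3.92 with a peak over the start base (exact, p = 0.167) and −4 with peaks of at least 1 kb (exact, p = 0.167), where the cell types no longer stood fully apart. On the log2 scale, the ratio of the member share to the coding share was lower in HSPCs by −0.80 for H2AK119ub and −0.88 for H3K27me3 (exact permutation tests, p = 0.0556 each, adjusted p = 0.151; added after the shares were seen). For H2AK119ub the mean coding share was similar, 69.7% in mES cells and 70.25% in HSPCs. For H3K27me3 it was higher in HSPCs, 61.6% against 44.7%, so that ratio reflects a higher coding share as well as a lower member share. The tile shares moved the same way as the members. With lists cut to equal length in file order the differences were −12.4 points for H2AK119ub and −4.15 for H3K27me3 (exact permutation tests, p = 0.0556 each). Whether file order follows peak strength is not known, as the files hold no score.

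More members carried H2AK119ub than H3K27me3, by 6.94 percentage points over matched cell types and genotypes (exact permutation test within the 4 cell type and genotype groups, p = 0.0077, adjusted p = 0.0495). The difference was wide in mES cells (mean 43.6% against 31.6%) and small in HSPCs (25.5% against 23.65%). WT HSPC library 2 for H2AK119ub, at 20.9%, lay below both WT HSPC libraries for H3K27me3, at 23.5% and 23.7%. The H2AK119ub lists were also longer in each cell type, with 112734 to 167378 peaks against 85121 to 125347. Lists of equal length were equal within a mark only. The difference over all groups was smaller with stricter overlap. With at least 50% of the window covered the difference was 0.924 points (exact permutation test, p = 0.559), with a peak over the start base itself 2.43 points (exact, p = 0.19), and with peaks of at least 1 kb 1.68 points (exact, p = 0.35). Among touched members, the median cover of the window was 35.6% to 42.2% for H2AK119ub in HSPCs and 52.0% to 62.2% for H3K27me3 in HSPCs. H3K27me3 covered the whole window of 288 to 329 members in the HSPC libraries, against 81 to 130 for H2AK119ub.

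Both marks were highest at the start of the lincRNA gene. In mES cells, the start base lay under an H2AK119ub peak at 27.2% of the members on average over the 4 libraries (range 25.6% to 27.9%), against 15.6% at 20 kb upstream and 15.3% at 20 kb downstream. In HSPCs the same values were 14.0% at the start, 8.20% upstream and 8.55% downstream. H3K27me3 went from 12.3% at 20 kb upstream to 20.1% at the start in mES cells, and from 9.88% to 16.2% in HSPCs. At coding starts the H2AK119ub value was 57.1% in mES cells and 59.7% in HSPCs. The lincRNA maximum was thus narrow and low, and it stood on a base that was lower in HSPCs than in mES cells.

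**Figure D2:**
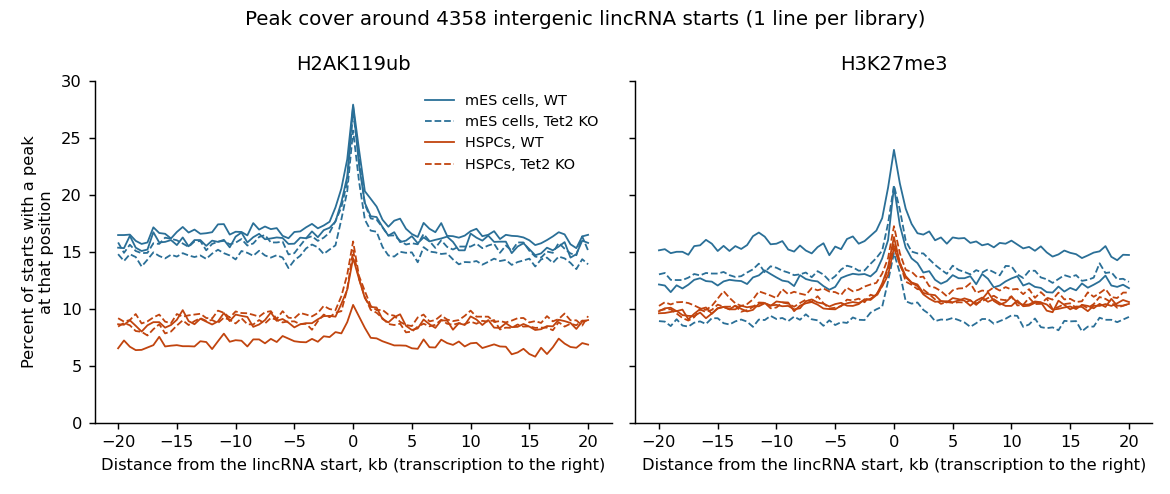
Percent of the 4358 starts with a peak at each position (vertical axis) against the distance from the start in kb (horizontal axis), with 1 line per library. Every line has its maximum at or beside 0, and for H2AK119ub the mES lines run above the HSPC lines along the whole 20 kb on both sides.

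Marked and unmarked members differed in CpG content. Windows were classed by the usual rule for CpG-rich promoters, in which a high class has a 500-bp stretch with over 55% GC and an observed-to-expected CpG ratio over 0.75, and a low class has no stretch with a ratio over 0.48. Only 154 members (3.53%) were high, 1163 (26.7%) intermediate and 3041 (69.8%) low, against 50.1%, 18.4% and 31.5% of coding promoters. Of the high class, the H2AK119ub shares were 82.5% to 87.7% for mES cells, against 81.2% to 89.6% for HSPCs, ranges that overlap. The low class stood at 36.3% to 39.0% for mES cells, against 16.97% to 22.8% for HSPCs. The lower HSPC share was therefore seen in the low and intermediate classes and not in the high class. Coding promoters of the low class were at 37.2% to 38.7% in mES cells, within the range of the lincRNA class, and at 28.6% to 34.4% in HSPCs, above it.

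H3K27me3 followed CpG content as well, and in the high class its HSPC shares were mostly above the mES shares. Of high-CpG members it touched 52.6% to 72.7% in mES libraries, against 71.4% to 80.5% in HSPC libraries. Of low-CpG members it touched 20.98% to 30.6%, against 18.4% to 19.7%. In mES cells the high-CpG lincRNA promoters (mean 62.7%) were marked more often than the high-CpG coding promoters (mean 49.7%, range 40.7% to 58.1%), and in each of the 4 mES libraries taken alone. In HSPCs the order was the reverse in each of the 4 libraries, with a mean of 73.9% against 84.3% (range 82.5% to 85.6%) for coding promoters. These class values are descriptions over promoters of the same libraries, with no test.

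**Figure D3:**
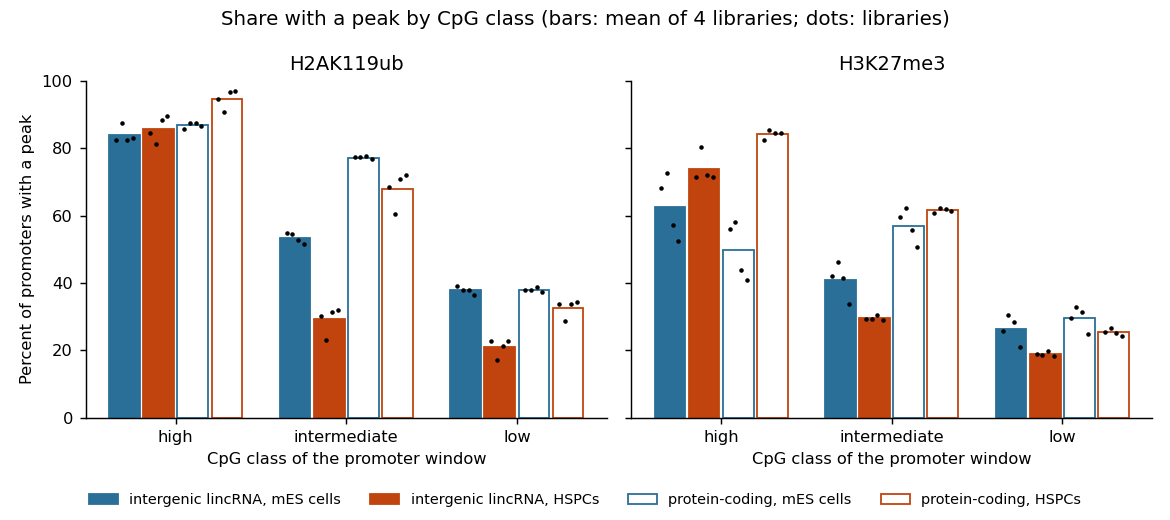
Percent of promoters with a peak (vertical axis) by CpG class of the window, for H2AK119ub (left) and H3K27me3 (right). Filled bars are intergenic lincRNA and open bars protein-coding promoters, each the mean of 4 libraries shown as dots; filled bars fall from 83.9% (high) to 37.9% (low) for H2AK119ub in mES cells and from 85.9% to 20.98% in HSPCs.

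Marked members became fewer with distance from coding genes, in both cell types. The median member lay 79.9 kb from the nearest coding start, with quartiles of 31.5 and 201 kb. Of the 234 members at 5 to 10 kb, H2AK119ub touched 57.9% in mES cells and 54.9% in HSPCs on average. Of the 318 members over 500 kb away it touched 12.9% in mES cells (11.6% to 14.2%) and 1.10% in HSPCs (0% to 2.20%). H3K27me3 went from 39.96% to 14.3% in mES cells and from 39.0% to 3.54% in HSPCs over the same bins. The decline was present in the low CpG class taken alone, where H2AK119ub in HSPCs went from 51.2% of 142 members at 5 to 10 kb to 0.879% of 256 members over 500 kb. The most distant members were also poorer in CpG (median 12 in the window against 26 in the nearest bin) and richer in repeats (31.9% masked against 27.3%).

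**Figure D4:**
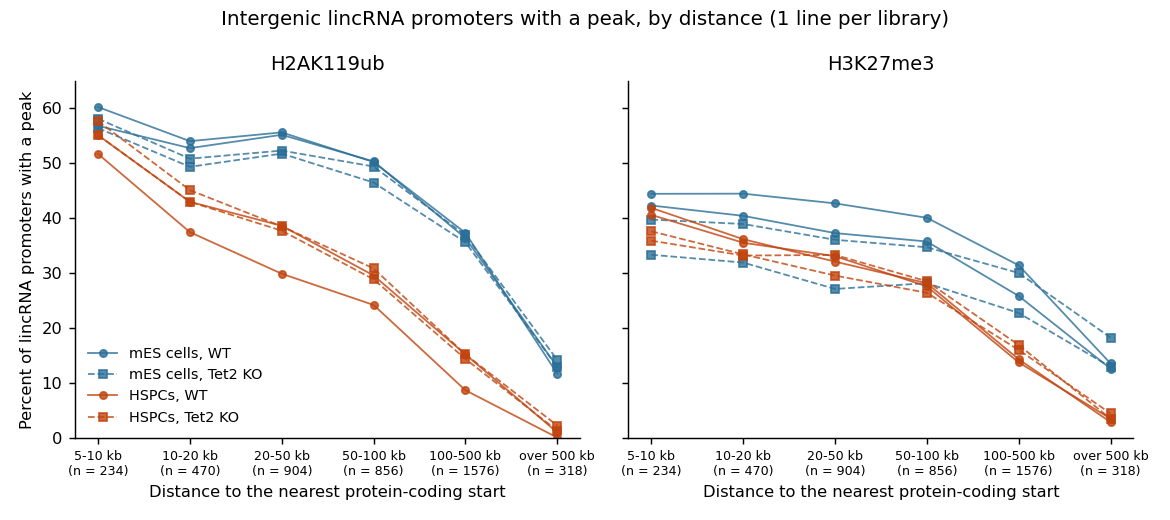
Percent of members with a peak (vertical axis) in 6 bins of distance to the nearest protein-coding start, with 1 line per library. The mES and HSPC lines start close together at 5 to 10 kb and part with distance, most clearly for H2AK119ub at 100 to 500 kb, where the means were 36.5% and 13.3%.

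Members on either side of the 5 kb threshold varied. Just inside it, Gm37552 (5027 bp from Gpr25) was touched in all 16 libraries and Gm44658 (5030 bp from Gm19345) in 2 of 4 mES and 3 of 4 HSPC H2AK119ub libraries and no H3K27me3 library. Just outside, Gm15729 (4987 bp from Cep19) was touched in 1 library and B230311B06Rik (4969 bp from Tmc5) carried H3K27me3 over its whole window in the 4 HSPC libraries and none in mES cells. The mark at the nearest coding promoter went with that at the member. In HSPCs, H2AK119ub touched 30.3% of members whose nearest coding promoter was touched in the same library and 11.95% of the others. In mES cells the shares were 47.7% and 29.1%, and H3K27me3 gave 37.4% and 22.9% in mES cells and 28.0% and 13.4% in HSPCs. A peak that touched both promoters and the shared local peak density were not separated here.

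The marks were next read together. In WT mES cells 1034 members (23.7%) carried both marks in both libraries, 434 carried H2AK119ub alone and 106 H3K27me3 alone. In WT HSPCs 355 (8.15%) carried both, 249 H2AK119ub alone and 299 H3K27me3 alone. Of WT members with H2AK119ub in both libraries, 61.4% had H3K27me3 in both in mES cells and 48.2% in HSPCs, where coding promoters stood at 65.1% and 75.9%. These shares are read against how often H3K27me3 was in both WT libraries at all, which in mES cells was 29.1% of members and 45.7% of coding promoters, and in HSPCs 19.1% and 56.0%. Across all 16 libraries, 1405 members (32.2%) had no peak in any and 163 (3.74%) had one in every library, against 15.2% and 21.3% of coding promoters.

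Only 6 members were covered over their whole window in all 16 libraries. In order of distance the first 5 were Gm42418 (103.6 kb from Esp38), Gm35040 (58.9 kb from Rhcg), Gm14342 and Gm27032 (30.7 and 26.3 kb from Ythdf1) and 1700127F24Rik (7.59 kb from Gpr132). Of the 6, 4 were of the high CpG class and 2 of the low. Gm14342 and Gm27032 start within the same 5 kb of chromosome 2, and Gm42418 holds the ribosomal sequence printed above, so these are fewer independent loci than names.

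Members whose mark was called in 1 cell type alone were counted with a strict rule, a peak in all 4 libraries of that cell type and in none of the other 4. For H2AK119ub 339 members (7.78%) were called in mES cells alone, against 3.02% of all 51229 promoters. In the other direction 13 members (0.298%) were called in HSPCs alone, against 1.42% of all promoters. The figure of 13 was small and moved between 7 and 25 over the alternative settings. For H3K27me3 273 members (6.26%) were called in mES cells alone, against a background of 3.75%, and 114 (2.62%) in HSPCs alone, against 6.77%. For either mark the members were thus above the background in the mES direction and below it in the HSPC direction. Of the 339 members with H2AK119ub in mES cells alone, 0% were of the high CpG class, 36.9% of the intermediate and 63.1% of the low class. All members stood at 3.53%, 26.7% and 69.8%, so the intermediate class was the one above its share. The median distance of the 339 from a coding start was 111 kb, against 79.9 kb for all members.

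Single promoters showed the cell types apart without overlap. Gm28380 (chromosome 1, start 91611406, 70.3 kb from Asb1) was covered to 100% by H2AK119ub in the 4 mES libraries and to 0% in the 4 HSPC libraries, while H3K27me3 covered 100% of it in all 8. Gm45625 (chromosome 8, start 35183886) had H2AK119ub over 100% in mES cells and 0% in HSPCs, and its H3K27me3 cover was 98.8%, 100%, 100% and 100% in mES cells and 0% in HSPCs. So the first kept H3K27me3 where H2AK119ub was not called, and the second had neither. C920006O11Rik (chromosome 9, start 78175914, 6.86 kb from Gsta4) was the reverse case. Its H2AK119ub cover was 0% in mES cells, then 46.2% and 65.8% for the WT HSPCs, against 87.0% and 82.0% for the KO HSPCs.

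For H3K27me3, 4933424M12Rik (chromosome 4, start 107783720, 18.5 kb from Lrp8) and Gm7706 (chromosome 8, start 15141044) were covered to 100% in the 4 mES libraries and to 0% in the 4 HSPC libraries. Gm43348 (chromosome 3, start 82812234), Rncr4 (chromosome 6, start 30172893, 56.8 kb from Nrf1) and Tbx3os2 (chromosome 5, start 119691218, 20.2 kb from Tbx3) were the reverse, with 0% in mES cells and 100% in HSPCs. Rncr4 carried H2AK119ub over 100% of its window in all 8 libraries, so the PRC1 mark was called there in both cell types and the PRC2 mark in 1. A neighbouring lincRNA, Gm31314, 143 kb from Tbx3, had the H3K27me3 pattern of Tbx3os2. Tbx3 encodes a T-box transcription factor.

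No Tet2 contrast on the share of marked members passed the threshold, and none of these designs allows it. With 2 libraries a group, 6 arrangements allow no p below 0.333. For H2AK119ub in mES cells, both KO libraries (43.5% and 42.0%) lay below both WT libraries (44.8% and 44.2%), a difference of −1.71 points (exact permutation test, p = 0.333, adjusted p = 0.633). Without KO library 2 it was −0.964 points. The coding share did not fall with it (69.6% ± 0.639 in WT and 69.8% ± 0.704 in KO, SD, n = 2), and the log2 ratio of member to coding share changed by −0.06 (exact permutation test, p = 0.333, adjusted p = 0.633). The mES difference for H3K27me3 was −4.77 points (exact permutation test, p = 0.667, adjusted p = 0.844), and the 2 genotypes overlapped. That value rests largely on KO library 2, the lowest at 25.5%. Without it the difference was −1.14 points, and without KO library 1 it was −8.41. The log2 ratio to the coding share changed by 0.09 (exact permutation test, p = 0.667, adjusted p = 0.844), and its sign turned with stricter overlap (−0.13 with 50% of the window covered).

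In HSPCs, H2AK119ub differed by 3.09 points (exact permutation test, p = 0.667, adjusted p = 0.844) with overlapping groups, by 0.0459 points without WT library 2, which was the lowest at 20.9%, and by 6.13 without WT library 1. H3K27me3 differed by 0.103 points (exact permutation test, p = 1, adjusted p = 1). The Tet2 effect over both cell types was 0.688 points for H2AK119ub (exact permutation test within cell type, p = 0.889, adjusted p = 1; −0.832 points without HSPC WT library 2) and −2.33 points for H3K27me3 (exact, p = 0.556, adjusted p = 0.844). With lists cut to equal length in file order the pooled H3K27me3 effect was −2.86 points at the smallest p (exact permutation test, p = 0.0556). In those lists the KO libraries lay below the WT libraries in mES cells (difference −4.15) and in HSPCs (difference −1.56). With the full lists, leaving out 1 library moved the pooled H3K27me3 effect from −0.516 (without mES KO library 2) to −4.15 points (without mES KO library 1). The difference between the HSPC and mES effects was 4.8 points for H2AK119ub (exact permutation test, p = 0.111, adjusted p = 0.264), and it was 4.88 points for H3K27me3 (exact, p = 0.5, adjusted p = 0.844). These 36 arrangements allow no p below 0.0556, so no outcome could have passed the threshold. With a peak over the start base the H2AK119ub difference of effects was 4.5 points at that smallest p (exact permutation test, p = 0.0556). For a peak anywhere in the window, leaving out 1 library moved the H2AK119ub difference of effects from 1.75 points (without HSPC WT library 2) to 7.84 (without HSPC WT library 1). The H3K27me3 difference moved in the same way from 1.24 points (without mES KO library 2) to 8.51 (without mES KO library 1).

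Individual members that changed hands were counted as lost, with a peak in both WT and in neither KO library, or gained, the reverse. Single promoters were not tested, as the exact test of 2 libraries against 2 allows no p below 0.333. For H2AK119ub in mES cells 101 members (2.32%) were lost against 1.19% of all promoters, and 56 (1.28%) were gained against 0.982%. For H3K27me3 in mES cells 155 (3.56%) were lost against 3.87%, and 54 (1.24%) gained against 0.939%. In HSPCs, H2AK119ub was lost at 32 members (0.734%) against 0.533% and gained at 94 (2.16%) against 1.62%. H3K27me3 in HSPCs was lost at 39 (0.895%) against 1.04% and gained at 50 (1.15%) against 1.01%. These shares depend on how many promoters were marked in the genotype that holds the peak. Lost members were therefore also set against members marked in both WT libraries, and gained members against those marked in both KO libraries. For H2AK119ub in mES cells 6.00% were lost and 3.51% gained by this measure, against 2.69% and 2.25% of all promoters so marked. In HSPCs 4.35% were lost and 10.4% gained, against 1.43% and 3.90%. The H2AK119ub shares of members were thus above those of all promoters in both directions. For H3K27me3 in mES cells the loss was 12.2% of marked members and 12.3% of marked promoters, while the gain was 5.26% against 3.65%. In HSPCs the H3K27me3 loss was 4.68% against 3.14% and the gain 5.78% against 2.99%. Apart from the mES loss, the H3K27me3 shares of members were thus above those of all promoters too. Replicates of 1 group differed at 336 to 613 members, a peak being in 1 library and not in the other, which is more than any of the counts. Calls also repeated less well at members than at coding promoters. In WT HSPCs H2AK119ub was in 1 library at 613 members and in both at 736, against 2083 and 13127 coding promoters. In WT mES cells these were 512 and 1683 members, against 1672 and 13649 coding promoters. The part of this in the lost and gained shares was not tested.

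The lost members with the largest difference in H2AK119ub cover in mES cells were Gm1965 (chromosome 6, start 89140994, 217 kb from Plxna1), 1700084D21Rik, Gm40770, Gm10415 and Gm48876. H2AK119ub covered all of the Gm1965 window in both WT libraries and none of it in either KO library, while its H3K27me3 cover was 26.6% and 100% in the WT and 0% in the KO libraries. Both marks were thus absent from the KO lists at this promoter, while in HSPCs H3K27me3 covered 31.8% to 59.0% of it in all 4 libraries. 1700084D21Rik had WT covers of 78.9% and 81.2% for H2AK119ub, then 27.3% and 27.8% for H3K27me3, and 0% for either mark in KO. All 5 belonged to the low CpG class, which holds 69.8% of all members. Of the 5, 2 lie on chromosome 6 and 2 on chromosome 13. Without these chromosomes 3788 of the 4358 members remained, with 75 of the 101 lost and 46 of the 56 gained. The share remaining was thus smaller among the lost members than among all members.

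Among the gained members of the same contrast was Neat1, the RNA scaffold of paraspeckles, with no H2AK119ub in either WT mES library and covers of 67.7% and 32.2% in the KO ones. In HSPCs its window was covered to 100% in all 4 libraries. Gm35299 (0% and 0% against 63.3% and 72.1%) and Gm38413 (0% and 0% against 55.3% and 59.4%) had the largest gains.

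For H3K27me3 in mES cells, 1700003M07Rik (chromosome 4, start 129960374, 12.8 kb from Spocd1) had the largest loss. It was covered to 100% in both WT mES libraries and 0% in both KO mES libraries, to 100% in the 4 HSPC libraries, and to 100% by H2AK119ub in all 8 libraries. The missing call was thus particular to 1 mark, 1 cell type and 1 genotype. Gm47141 had WT covers of 76.9% and 74.3%, none in KO and 100% in the 4 HSPC libraries. There H2AK119ub cover was lower in KO as well, 65.6% and 66.6% in WT against 38.4% and 28.2%, and it was 0% in the HSPC libraries. Gm29067 and Gm12478, 2 divergent genes whose windows overlap (starts at 54646280 and 54646542 on chromosome 4, the nearer 298.5 kb from Zfp462), had the largest gain, none in WT against 100% and 78.6% in KO for Gm29067. Neither had any H2AK119ub or any HSPC peak.

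In HSPCs the largest H2AK119ub gain was Gm10830 with its divergent neighbour Gm28876 (starts at 103102237 and 103102111 on chromosome 15). Gm10830 had no H2AK119ub in WT and covers of 71.1% and 61.2% in KO, and H3K27me3 covered 100% of it in the 4 HSPC libraries. 1700030E10Rik (chromosome 10, start 67718039) had the largest H2AK119ub loss, from 53.6% and 57.4% to 0% and 0%, and 4930563J15Rik, on the same chromosome at 67571989, was gained, from 0% and 0% to 65.7% and 64.9%. For H3K27me3, 1700036A12Rik went from 50.1% and 100% to 0% and 0%, and Gm11426 from 0% and 0% to 80.1% and 37.7%. These covers are partial and vary between replicates, each library having its own list.

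Known lincRNAs were taken from 6 gene lists. Of 19 widely expressed non-coding genes 8 were members, among them hosts of small RNAs and abundant nuclear RNAs. H2AK119ub touched all 8 in all 4 HSPC libraries, and 2 of 8 in all 4 mES libraries, against 14.1% and 31.7% of all members. H3K27me3 touched 3 of 8 in all 4 HSPC libraries and 1 of 8 in all 4 mES libraries, against 16.45% and 20.35% of all members. Malat1, a nuclear speckle RNA, had H2AK119ub covers of 0%, 21.6%, 20.4% and 0% in mES cells and 32.6%, 100%, 14.7% and 38.1% in HSPCs, so the level varied as much within HSPCs as between cell types. Mir17hg, the host of the miR-17-92 cluster, had no H3K27me3 in any library. Snhg12, host of small nucleolar RNAs, had H2AK119ub over 57.4%, 66.3%, 39.2% and 57.6% of its window in HSPCs and over 25% in 1 mES library. These 8 promoters are of the high CpG class, which H2AK119ub touched at similar rates in both cell types. H3K27me3 touched on average 65.6% of the 8 per HSPC library and 25% per mES library, against 73.9% and 62.7% of all high-CpG members.

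The Platr genes, found as pluripotency-associated transcripts, gave 18 members. H2AK119ub was in all 4 mES libraries at 6 of them and in none at 8, where 31.7% and 44.3% of all members were. H3K27me3 was absent from all 4 mES libraries at 15 of the 18, and from all 4 HSPC libraries at 12, against 56.6% and 67.3% of all members. Apart from the 15, these counts lie close to the shares of all members. Platr11 had H2AK119ub covers of 80.7%, 100%, 71.9% and 100% in mES cells and 0% in HSPCs. Platr30 was covered by H2AK119ub to between 63.4% and 69.1% in all 8 libraries, while its H3K27me3 cover was 0% in mES cells and between 73.4% and 73.6% in HSPCs. It was 1 of 2 Platr promoters with H3K27me3 in all 4 HSPC libraries, the other being Platr27, with 44.4%, 34.6%, 58.6% and 52.9%.

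Of 25 haematopoietic non-coding genes 6 were members, and 2 of them had opposite H3K27me3 patterns. Mir155hg, the host of miR-155, was covered to 100% in the 4 mES libraries and to 0%, 0%, 25% and 0% in HSPCs, with H2AK119ub in all 8 libraries. Bloodlinc, a red-cell lincRNA 10.8 kb from Slc4a1, had 0% in mES cells and 100%, 100%, 100% and 89.3% in HSPCs, again with H2AK119ub in all 8. Lockd, 8.58 kb from the cell-cycle inhibitor gene Cdkn1b, had H3K27me3 covers of 56.6% and 69.6% in the WT mES libraries against none in KO, and H2AK119ub in all 8 libraries. Pvt1, 50.6 kb from Myc, carried H2AK119ub over 47.8% to 100% of its window in all 8 libraries.

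Of the imprinted list 3 members remained. H19 was covered to 100% by H3K27me3 in all 8 libraries and by H2AK119ub in the 4 mES and 2 KO HSPC libraries, with 53.3% and 49.6% in WT HSPCs. Meg3, like H19 expressed from the maternal allele, had H3K27me3 over 0% in mES cells and over 100%, 100%, 92.5% and 100% in HSPCs, while H2AK119ub touched it in 1 library of each cell type. The lists do not separate alleles. In the developmental list H3K27me3 covered 100% of Miat in all 8 libraries, and 100% of Lncpint in 7 of 8. Rmst, a transcript of neural development 557 kb from Nedd1, had no H2AK119ub in any library and H3K27me3 over 59.2%, 50.8%, 100% and 100% in HSPCs. Trp53cor1, 11.8 kb from Cdkn1a, had an H2AK119ub cover between 25% and 64.2% in HSPCs, and a peak in 1 mES library.

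Of the Hox cluster list, Hotair, in the HoxC cluster and 6.7 kb from Hoxc11, carried both marks in all 16 libraries, with H3K27me3 over 72.5% to 100% of its window. Among the members of the 6 lists, Meg3, Bloodlinc, Platr30, Halr1 and Bvht had an H3K27me3 call in all 4 HSPC libraries and none in mES cells. The lists held 8, 18, 6, 3, 7 and 2 members, and the same call was made at 2.62% of all members and 6.77% of all promoters. The HSPC covers of Bvht, of the developmental list, were 100%, 62.7%, 85.5% and 65.4%. Other listed members with the call in all 4 HSPC libraries also had mES peaks, among them Hotair, Miat, Lncpint and Rmst, the last in 3 of the 4 mES libraries.

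**Figure D5:**
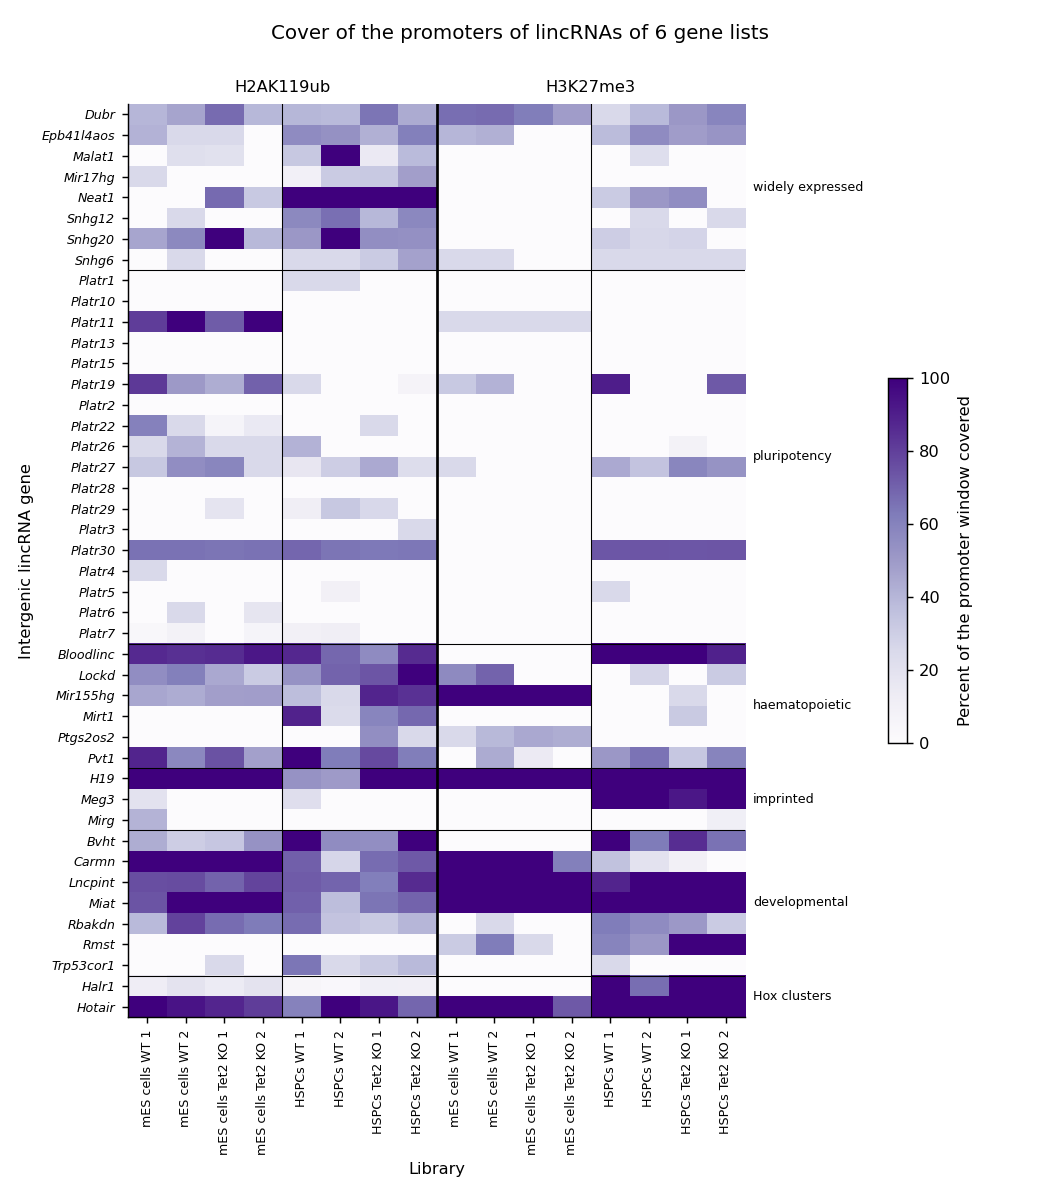
Percent of the promoter window covered by peaks (colour, 0 to 100) for the members of 6 gene lists (rows) in the 16 libraries (columns, H2AK119ub left and H3K27me3 right). Mir155hg is filled at 100% for H3K27me3 in mES cells and nearly empty in HSPCs, and Meg3 and Bloodlinc show the reverse.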

How the data were processed

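CUT&Tag peak lists of 16 mouse libraries were used as deposited, with groups and replicate numbers from the labels. Another 4 libraries, of the human line K562, were not used. By the account in the methods, the authors cleaned the reads (Trimmomatic 0.39), mapped them to mm10 together with the spiked-in fly genome (Bowtie2 2.4.1), dropped duplicates (Picard), and ran MACS2 in broad mode at a cutoff of 0.01. A read with several alignments was given its best one, and 1 list was deposited per library. HOMER 4.9 is named in the submitters' processing notes without a role. The deposited files give positions alone, with no count, score or signal, and a peak list carries no spike-in scaling.

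Starts came from GENCODE M21, and windows, CpG and masked bases from GRCm38. Distances were taken to the starts of coding genes and of their protein-coding transcripts. Overlaps used pandas 2.3.3 and numpy 2.4.6 under Python 3.11.15. Shares were compared by two-sided exact permutation tests, with Benjamini-Hochberg adjustment over 19 tests, 2 of them added after the shares were seen. All promoters gave the background. The overlap and call code was tested on simulated data with known lost and gained promoters.

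Members and lists were chosen with earlier results of these data known. Named were members of the 6 lists, up to 5 members per contrast and direction with the largest difference in mean cover, and up to 5 covered in full. The text gives values for a selection of the named members. Alternatives were stricter overlap, wider windows, wide peaks, equal list lengths in file order, other member definitions, left-out libraries and a replicate block. Same-numbered WT and KO libraries did not deviate together over members (r from −0.18 to −0.02), so the numbers were not taken as pairs.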

Additional observations from a re-analysis of the deposited data

Results flagged for a closer look

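Chromosome X was left out of the comparisons, and its 90 intergenic lincRNA promoters showed marks in the Tet2 KO HSPC libraries above the level in the WT controls. H3K27me3 touched 43.3% and 35.6% of them in KO (mean 39.4%) against 6.67% and 4.44% in WT. H2AK119ub touched 15.6% in both KO libraries (mean 15.6%) against 5.56% and 3.33% in WT. In mES cells the KO and WT values overlapped, from 7.78% to 12.2% for H3K27me3 and from 8.89% to 12.2% for H2AK119ub. The 948 coding promoters of X moved with them, at 70.9% and 67.8% in KO HSPCs and 23.2% and 25.4% in WT HSPCs for H3K27me3. Mice of both sexes were used, and the sex behind each library is not given in the sources used here. Its part in these values was not tested. The autosomal H3K27me3 share of members in the same libraries was 23.0% to 24.4%.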

How the results depend on the processing

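The lists carry no depth, so a promoter without a peak may have signal below the caller's threshold. HSPCs stayed below mES cells, and members below coding promoters, for both marks under every alternative and with each library left out, though the H3K27me3 difference between cell types shrank to between −2.69 and −4 points under the 3 stricter overlaps. Requiring 50% cover left, in mES cells, 67 lost and 28 gained for H2AK119ub, with 95 and 15 for H3K27me3. In HSPCs it left 11 and 45 for H2AK119ub, with 21 lost for H3K27me3. It gave 197 members with H2AK119ub in mES cells alone, 7 in HSPCs alone and 141 with H3K27me3 in mES cells alone. The difference between the marks was 0.924 points, and the log2 ratio for Tet2 and H3K27me3 in mES cells turned to −0.13. With a peak over the start base, 29 members gained H3K27me3 in mES cells, 17 lost H2AK119ub and 25 lost H3K27me3 in HSPCs, 8 had H2AK119ub in HSPCs alone, 153 had H3K27me3 in mES cells alone, and the marks differed by 2.43 points. Peaks of at least 1 kb gave, in mES cells, 37 gained for H2AK119ub, with 102 lost and 26 gained for H3K27me3, then 12 lost and 52 gained for H2AK119ub and 21 lost for H3K27me3 in HSPCs, and 170 with H3K27me3 in mES cells alone. The marks then differed by 1.68 points, and the log2 ratio for Tet2 and H3K27me3 in mES cells was −0.12. These counts are lower by construction, as fewer promoters are touched. Windows of 2 kb on each side turned the H3K27me3 effect of Tet2 in HSPCs to −0.0803 points and gave 20 members with H2AK119ub in HSPCs alone. Lists of equal length gave −1.56 points, a log2 ratio of −0.0378 and 25 members. A distance over 20 kb gave 8. The cause was not tested.

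Leaving out each replicate raised the lost and gained counts by construction, since 1 library fewer has to meet the rule. H2AK119ub in mES cells had 193 to 209 lost and 131 to 155 gained, and H3K27me3 183 to 353 and 70 to 158. H2AK119ub in HSPCs had 68 to 189 lost and 145 to 242 gained, and H3K27me3 70 to 133 and 92 to 134. H2AK119ub in HSPCs alone ranged from 14 to 25. The H3K27me3 effect of Tet2 in HSPCs ranged from −0.562 to 0.769 points and its log2 ratio from −0.0274 to 0.044. The log2 ratio ranged from −0.0354 to 0.23 for H2AK119ub in HSPCs, and from −0.00514 to 0.19 for H3K27me3 in mES cells. The pooled H2AK119ub effect ranged from −0.832 to 2.21 points, being negative without HSPC WT library 2.

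With the replicate block no call changed, and the H2AK119ub difference in mES cells was −1.71 points (exact permutation test, p = 0.5, the smallest that the replicate block allows). For H3K27me3 in mES cells the deviations of same-numbered libraries had r = −0.18, and crossing the numbers, an alternative chosen after the data were seen, left 0 contrasts past the threshold.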

Other observations

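Repeats went with unmarked promoters. Of 340 members with at least 50% of the window soft-masked, H2AK119ub touched 8.24% to 12.6% in mES libraries, against 4.12% to 5.59% in HSPC libraries. Of 584 members with under 10% masked, it touched 61.3% to 65.2% and 30.5% to 40.8%. H3K27me3 gave 6.47% to 10.3% and 43.1% to 55.5% in mES cells for the same classes. Reads in repeats are harder to place, and the part of mapping in these values was not tested. The number of exons made less difference. H2AK119ub touched 35.9% to 41.5% of 217 members with 1 exon in mES cells, 44.2% to 47.5% of 1536 with 2 exons and 41.2% to 44.0% of 2605 with 3 or more.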
